A study of Mus musculus with 2 samples.

Results

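The list held 91 of the 43346 Ensembl gene entries: protein-coding genes of the cytoplasmic ribosome, with an entry for both libraries whether or not they had counts. Members were chosen by symbol, as Rpl or Rps followed by a digit, Rplp0, Rplp1, Rplp2 or Rpsa, leaving out the Rps6k kinase genes and Rps19bp1. No measured value was used in the choice. Of the 91 members, 31 encode core proteins of the small subunit and 46 encode core proteins of the large subunit. These 77 are called the core genes below. The other 14 are paralogs or retrogenes outside the core. Some other genes, Fau and Rack1 among them, also encode ribosomal proteins, but their symbols fall outside the rule.

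The cells were common myeloid progenitors (CMP), bone marrow cells upstream of the granulocyte, monocyte, platelet and red cell lines. They were primary cells from adult C57BL/6J males 5 to 6 weeks old, with no transgene or treatment stated in the labels. Total RNA depleted of ribosomal RNA was sequenced in 2 libraries of 1 group, numbered as biological replicates 1 and 2. Both libraries name the same donor, so the spread between them may be partly technical. No conditions can be compared within 1 group, so there are no p-values, and each level is given in replicate 1 and then in replicate 2.

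Replicate 1 held 28158803 expected counts (estimated reads) and replicate 2 held 84041054. A gene with 0 counts could still have had up to 3, or 0.107 CPM in replicate 1 against 0.0357 CPM in replicate 2 (CPM being counts relative to the sum over genes), for counting error only. Of the progenitor markers, Cd34 stood at 125.44 and 121.43 TPM (a level corrected for length and scaled to all entries of the table), Mpo at 314.33 and 399.28 TPM, and Kit at 33.45 and 39.77 TPM. Fcgr2b was lower, at 6.28 and 6.11 TPM, and Fcgr3 stood at 1.63 and 3.48 TPM. Ly6a and Il7r, markers that should be low here, were under 1 TPM in both libraries. Ly6a had 0.69 and 0.73 TPM. Il7r differed between the libraries, at 0.96 and 0.13 TPM from 218 and 76 counts. Of 9 markers of B, T, red, stromal and endothelial cells, 6 had 0 counts in both libraries, namely Cd79a, Pax5, Cd3e, Cd8a, Col1a1 and Cdh5. The red cell markers had 11 and 19 counts (Alas2) and 13 and 145 counts (Slc4a1).

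A cytoplasmic ribosome is built from ribosomal RNA and one copy each of most of its proteins, so the proteins are needed in nearly equal number. In mammals the mRNAs of these proteins typically begin with a C followed by a run of pyrimidines, the 5′ terminal oligopyrimidine tract, through which growth signals control their translation. Mammalian genomes also carry many processed copies of these mRNAs, most of them annotated as pseudogenes. Loss of 1 allele of several of these genes causes Diamond-Blackfan anaemia in humans, a failure of red cell production.

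Ribosomal protein genes were among the most abundant mRNAs of the cells. A level of at least 1 TPM in both libraries was reached by 86 of 91 members, where 42.5% of the 21461 nuclear protein-coding genes did so. A level of at least 100 TPM in both was reached by 78 members, 75 of them core genes, against 1.25% of nuclear protein-coding genes. Among the 100 nuclear protein-coding genes of highest mean TPM, 58 were core genes, and among the top 20 there were 12. Members held 6.25% of all expected counts in replicate 1 and 5.39% in replicate 2. Of the TPM of nuclear protein-coding genes they held 22.99% and 20.62%. Of the TPM of all Ensembl entries the share was 4.62% and 4.44%.

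The median core gene stood at 513.48 and 459.14 TPM. The 77 nuclear genes of the mitochondrial ribosome, a separate particle, had medians of 11.82 and 13.12 TPM. A list of 40 proteasome genes was chosen by symbol, as Psma, Psmb, Psmc or Psmd followed by a digit. It includes genes that are not subunits, such as Psmc3ip. Medians of this list were 35.305 and 38.395 TPM. The core median was thus 43.44 and 34.995 times the mitochondrial ribosomal median, and 14.54 and 11.96 times the proteasome median. Elongation factors and other mRNAs known for a pyrimidine tract in mammals, 14 genes, had medians of 158.1 and 216.09 TPM. These are bulk samples, in which fewer cells of a type and less RNA per cell cannot be told apart. The highest member of the mitochondrial list, Mrps21, averaged 76.0 TPM, below every core gene except Rpl27.

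**Figure D1:**
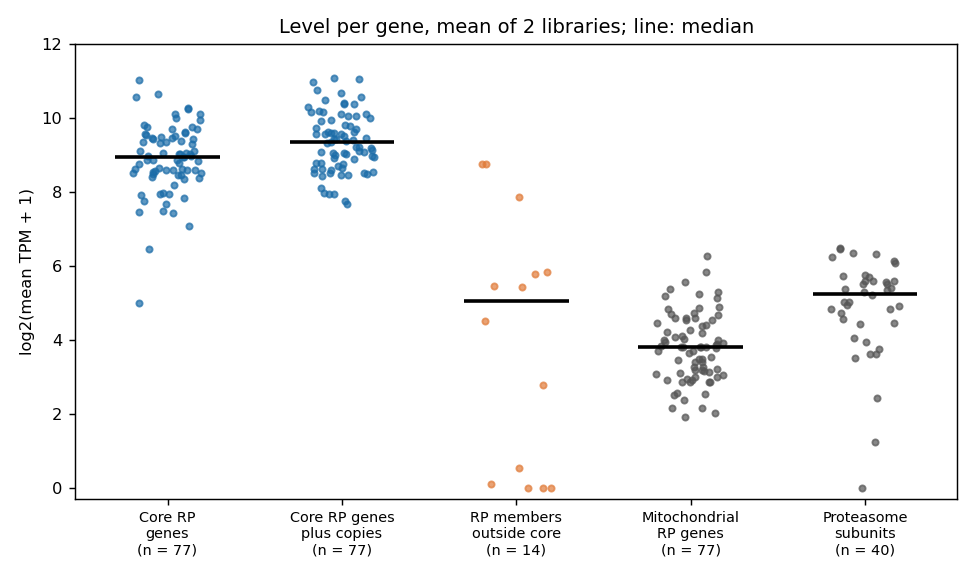
Mean level of each gene over both libraries as log2(mean TPM + 1), in columns for the core ribosomal protein (RP) genes, the core genes with their near-identical copies summed, the 14 members outside the core, the 77 mitochondrial RP genes and the 40 proteasome genes; lines are medians. The lowest core points, Rpl27 at 31.1 and Rpl5 at 86.3 mean TPM, are no longer low once copies are summed.

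In the small subunit, Rps3a1 (chr3:86137940-86142702, minus strand) had the highest level, at 1611.94 and 1597.49 TPM. Rps7, which in human cells also binds the p53 regulator MDM2, followed at 1189.90 and 1219.33 TPM. Rps24, a gene with alternative last exons, had 1176.12 and 1020.47 TPM. Rps3a1 was above Rps7, and Rps7 above Rps24, in both libraries. Rps14, the gene of the human 5q minus syndrome, had 966.86 and 998.92 TPM, and Rps13 had 852.11 and 860.96 TPM. The lowest small subunit genes were Rps15a at 153.84 and 190.11 TPM, Rps16 at 198.22 and 231.39 TPM, and Rps27 at 245.61 and 233.11 TPM. Rps3, a protein of the mRNA entry channel, had 232.23 and 270.78 TPM. Rps27a, made as a fusion with ubiquitin, had 276.05 and 298.99 TPM.

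In the large subunit, Rpl36a (chrX:134585654-134588062, plus strand) had the highest level of all members, at 2426.41 and 1770.75 TPM, second among nuclear protein-coding genes by mean. Rpl32 had 1444.15 and 1592.89 TPM, and Rpl26, which lies near the exit of the peptide tunnel, had 1262.65 and 1220.83 TPM. Rpl38, known in mouse embryos for its part in translating Hox mRNAs, had 1150.69 and 873.16 TPM. The spread between libraries was wider for Rpl36a and Rpl38 than for Rpl26. Rpl27 was lowest of the core genes, at 26.99 and 35.20 TPM. Rpl5 had 75.92 and 96.69 TPM, Rpl31 127.30 and 138.58 TPM, and Rpl10a 170.04 and 180.43 TPM. These 4 were low in both libraries.

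The stalk recruits the GTP-using translation factors. Its anchor Rplp0 stood at 330.40 and 398.32 TPM. The acidic stalk proteins, which bind Rplp0 as dimers, had 1100.51 and 1097.51 TPM for Rplp1 and 486.11 and 620.99 TPM for Rplp2. Rpl12, at the stalk base, had 490.82 and 542.76 TPM. Rplp1 was therefore above the other 3 stalk genes in both libraries. Rpl5 and Rpl11 join 5S ribosomal RNA into a particle that in mammals also binds Mdm2. Rpl11 had 243.79 and 245.45 TPM, and the entry of its partner Rpl5 was lower in both libraries. The order turned once near-identical copies of the genes were summed, with 1676 and 1618 TPM for Rpl5 and its copies and 371 and 345 TPM for Rpl11 and its copies. The Rpl5 entry itself held 8.40% and 10.3% of the counts on Rpl5 and its copies.

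**Figure D2:**
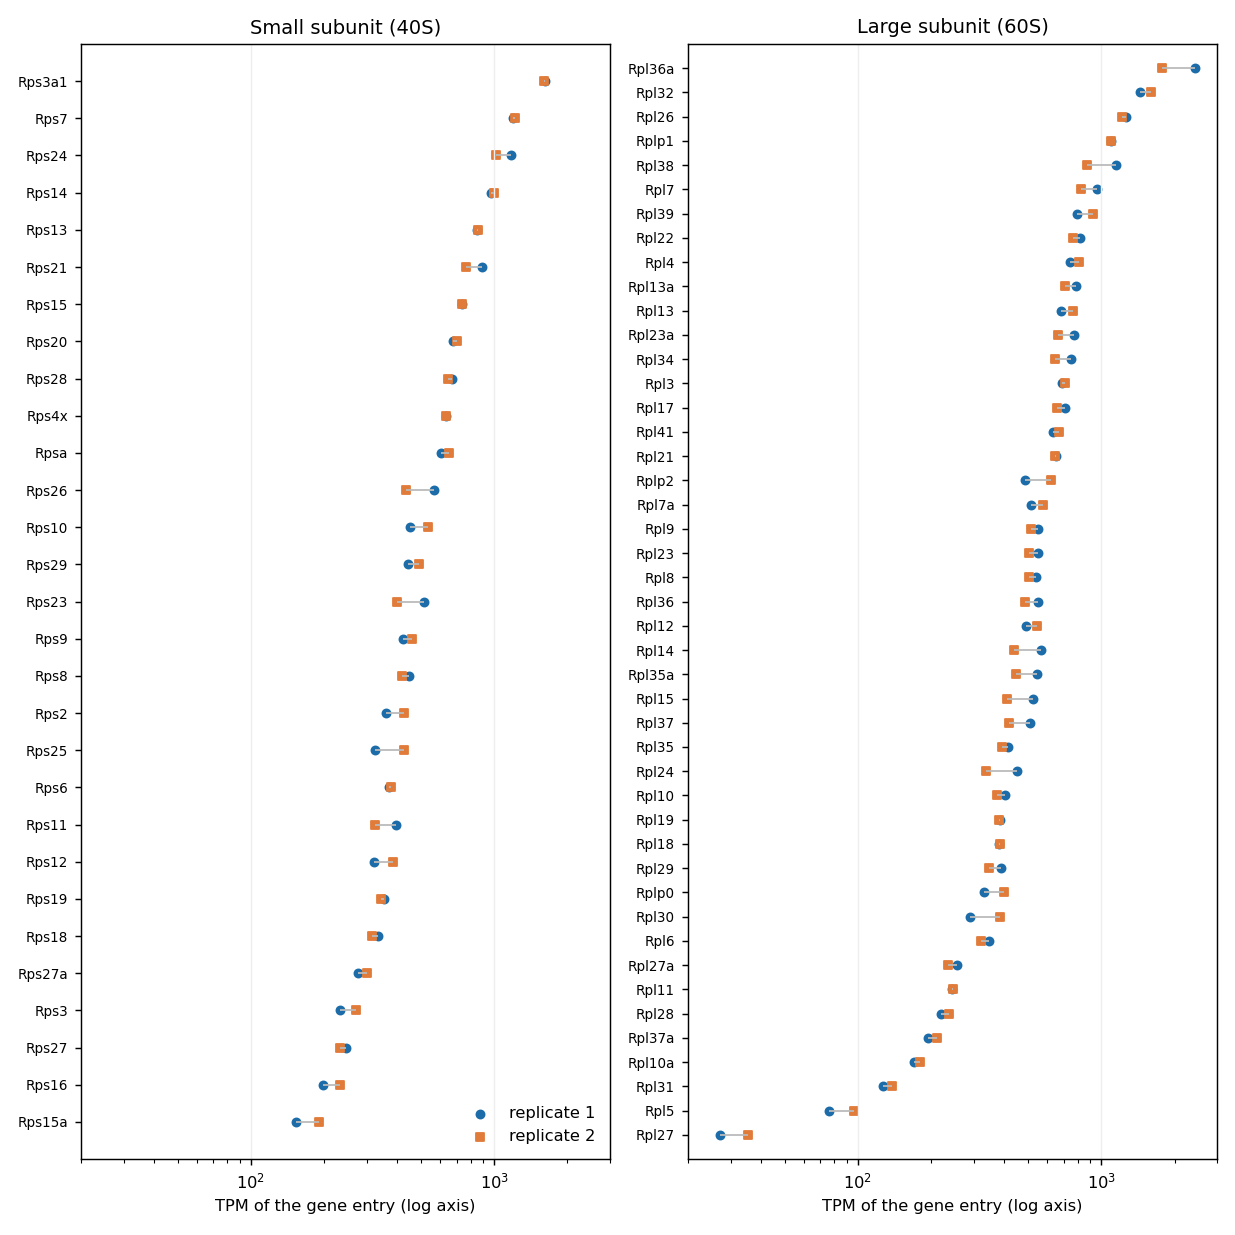
TPM of 74 core genes in replicate 1 (circles) and replicate 2 (squares) on a log axis, small subunit left and large subunit right, ordered by mean. The small subunit runs from Rps15a at 172 to Rps3a1 at 1605 mean TPM, and the large subunit from Rpl27 at 31.1 to Rpl36a at 2099 mean TPM.

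All 19 genes of the Diamond-Blackfan list were detected, with medians of 443.32 and 410.17 TPM, against 513.48 and 459.14 TPM over all core genes. Rps19, the gene most often affected in human patients, had 351.18 and 343.11 TPM. Rps28 had 670.45 and 645.30 TPM and Rps26 567.62 and 432.49 TPM. Rps10 had 448.72 and 535.62 TPM and Rps29 443.32 and 489.93 TPM. As single genes, Rpl27 and Rpl5 were the lowest of the list and Rpl26 the highest. Rpl27 and Rpl5 held at most 10.3% of the counts on the gene and its copies, and with copies they reached 1348 and 1647 mean TPM. Further large subunit genes of the list were Rpl11 at 243.79 and 245.45 TPM, Rpl31 at 127.30 and 138.58 TPM, Rpl35a at 544.54 and 444.14 TPM, Rpl15 at 521.69 and 410.17 TPM, Rpl35 at 412.05 and 389.16 TPM and Rpl18 at 380.68 and 381.97 TPM.

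Between the core genes the levels differed 67.5-fold from lowest to highest mean, although the middle part of the range was narrow, with quartiles at 360 and 720 mean TPM. The standard deviation (SD) among core genes of log2(mean TPM + 1) was 0.95. It was 0.77 in the small subunit and 1.07 in the large. Over the 77 mitochondrial ribosomal genes it was 0.93. The small subunit median was below the large subunit median by 0.24 on the log2 scale in replicate 1 and 0.19 in replicate 2, a mean difference of -0.22 ± 0.04 (SD, n = 2). Levels in the libraries ran together across the 77 genes, with a Pearson r of 0.976 and a Spearman rho of 0.957 on the log2 scale. The relation to the length of the gene model was weak, with an r of -0.28. Genes share a library and are not independent replicates, so these are descriptions.

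The low end of the range coincided with genes that have near-identical copies elsewhere in the genome. Copies were found by aligning the coding sequences of 80 core genes, with Fau and Rack1 among those outside the symbol rule, to the other transcripts of the annotation, at 90% identity or more over 50% or more of the coding sequence. There were 713 copies, 700 of them annotated as pseudogenes and 6 themselves members. At least 1 copy was found for 74 of the 80 genes, and none, for example, for Rack1, Rpl41, Rpl8 and Rps3. Counts were present in both libraries for 318 copies, and 40 copies had 1000 or more in each. A gene and its copies are called a family below.

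Rpl5 has the most heavily counted copy, Gm15500 on chromosome 7 (chr7:114705217-114706235, minus strand), which holds the whole 891-base coding sequence of Rpl5 without a difference. The first coding bases of both are shown because reads from them cannot be told apart, and no base is in capitals since none differs.
Rpl5: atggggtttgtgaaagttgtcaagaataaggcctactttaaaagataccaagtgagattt
Gm15500: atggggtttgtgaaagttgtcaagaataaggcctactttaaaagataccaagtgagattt

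Other copies differ at single bases. Rpl35, on chromosome 2, and its copy Gm2000, on chromosome 1, differ in the coding sequence by C117T, counted from 1 at the A of the start codon, with the base of the gene first. Rpl39, on the X chromosome, and Rpl39-ps, on chromosome 15, differ by T96C over the aligned part. Capitals mark the base that differs.
Rpl35: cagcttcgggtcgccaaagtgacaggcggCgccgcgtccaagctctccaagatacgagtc
Gm2000: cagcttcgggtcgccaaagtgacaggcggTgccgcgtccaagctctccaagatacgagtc
Rpl39: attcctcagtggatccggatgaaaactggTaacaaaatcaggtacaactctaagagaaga
Rpl39-ps: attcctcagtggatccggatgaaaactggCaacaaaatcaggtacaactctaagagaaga

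Rpl27 itself received 923.74 and 3218.27 expected counts, while its copy Rpl27-ps3 on chromosome 18 received 29848.15 and 60105.50. Rpl27 thus held 3.002% and 5.076% of the counts of its family. Rpl5 received 8994.05 and 27680.37 expected counts, and Gm15500 received 97931.71 and 241752.88. The share on Rpl5 was 8.40% and 10.3% of its family. In each of these families nearly all counts stood on an entry annotated as a pseudogene, in both libraries.

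The share of family counts on the gene was under 50% in both libraries for 6 of the 77 core genes. Besides Rpl27 and Rpl5 these were Rps27 (16.43% and 17.98%, with Rps27rt holding most of the rest), Rps12 (24.7% and 30.9%, with Rps12l1 and Rps12-ps3, but 100% under a stricter match of copies), Rps6 (35.5% and 38.7%, with Rps6-ps4) and Rps23 (44.2% and 40.1%, with Rps23-ps1). Rps6 is the protein phosphorylated by the S6 kinases. Rpl31 (47.9% and 51.3%), Rpl35 (54.1% and 50.4%) and Rpl10a (58.6% and 62.8%) were next. A stricter match, 98% identity over 90% of the coding sequence, left 5 genes under 50% in both libraries and put Rpl31, like Rps12, at 100%. The most counted copies of these genes missed only the limit on coverage. Rps12l1 and Rps12-ps3 are identical to Rps12 over 86.5% of its coding sequence, and Rpl31-ps8 to Rpl31 over 89.4%. For Rpl39 the split itself differed between the libraries, with 54.5% and 75.1% on the gene. At the other end, 49 core genes held 90% or more of their family's counts in both libraries, and 19 held 99% or more. The median share on the gene was 95.32% and 95.01%. Over all 77 families the core genes held 81.8% and 82.6% of the counts and the copies 18.2% and 17.4%.

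**Figure D3:**
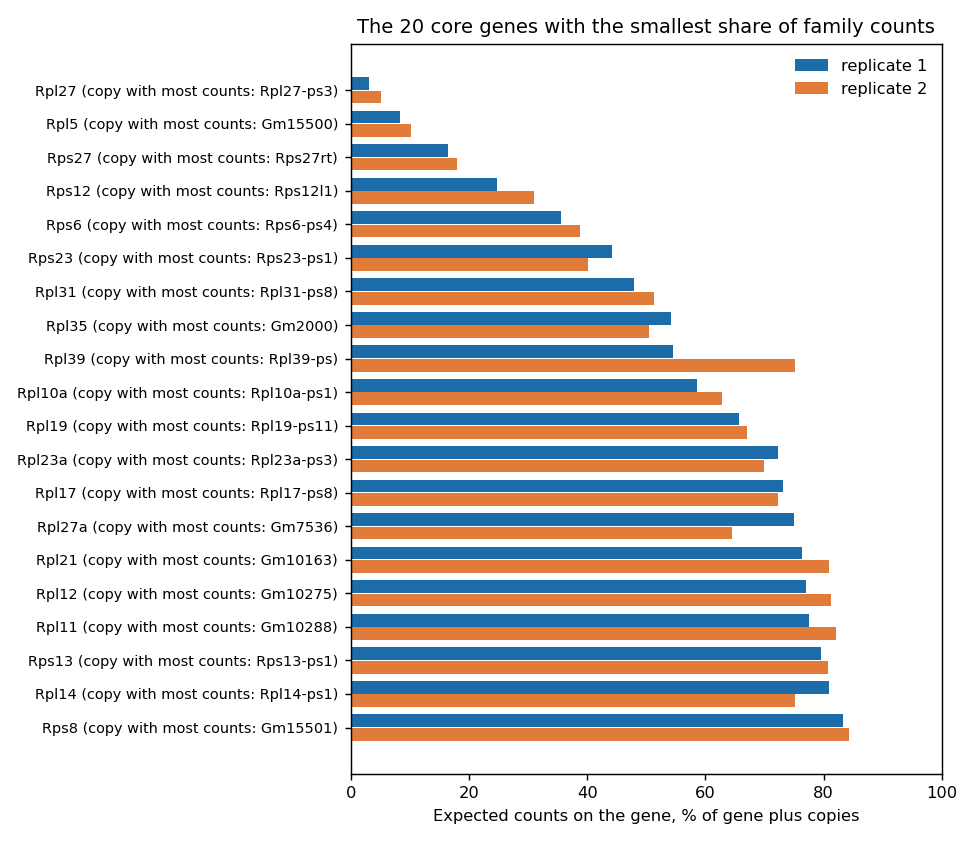
Expected counts on the gene as a percent of those on the gene and its copies, for the 20 core genes with the smallest share in replicate 1; upper bars are replicate 1 and lower bars replicate 2. Rpl27 and Rpl5 are at or under 10.3% in both libraries, and Rpl39 has the widest gap between libraries, 54.5% against 75.1%.

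Counts became whole numbers when families were summed. Only 6 of the 77 core genes had whole counts in both libraries (within 0.05), against 61 of the 77 families. For Rps27 the gene and its copies together held 6524.00 and 16719.00 counts, while Rps27 alone held 1071.68 and 3005.90. The deposited posterior SD of the count, a score for the uncertainty of the split, was small beside these differences. It was 99.63 and 179.89 counts for Rpl5 and 36.72 and 53.68 counts for Rpl27. It covers the division of reads under the authors' model only.

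With copies summed, the extremes of the core genes lay closer together, but the middle part of the range was wider. Quartiles were at 432 and 988 mean TPM, a ratio of 2.29, against a ratio of 2.00 for single genes. At the length of the gene the ratio was 2.20. The range from lowest to highest mean family level narrowed to 10.8-fold, where single genes spanned 67.5-fold, and the SD of log2 level was 0.81 (0.78 where family counts were divided by the effective length of the gene). Rpl5 and its copies reached 1676 and 1618 TPM, and Rpl27 and its copies 1529 and 1166 TPM. At the length of the gene these were 904 and 942 TPM for the Rpl5 family and 899 and 693 TPM for the Rpl27 family, since their most counted copies have shorter models. Either way both families lay above the median family, and neither stayed at the low end. Among the lowest families were then Rps15a at 181 and 222 TPM and Rps16 at 218 and 268 TPM, which were also the lowest of the small subunit before summing. Rps3, with no copy found, stayed at 232.23 and 270.78 TPM. The highest families were Rpl39 at 2627 and 1738 TPM, Rpl36a at 2431 and 1778 TPM and Rps23 at 2158 and 1872 TPM. The order among the high families depends on model length, since Rps23 and its copies came to 1162 and 998 TPM at the length of the gene.

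With copies summed, the difference between the subunits was smaller. With copies at their own lengths, the small minus large difference of medians was 0.05 on the log2 scale in replicate 1 and -0.03 in replicate 2, so its sign differed between the libraries. At the length of the gene it was 0.09 and 0.10, where single genes gave -0.24 and -0.19. The SD within the large subunit fell to 0.78, against 1.07 for single genes, while that of the small subunit was 0.85, against 0.77.

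The 14 members outside the core covered the whole range from no counts to core levels. Rps27rt, a retrogene whose coding sequence is identical to that of Rps27, had 453.32 and 414.68 TPM, which was 185% and 178% of Rps27. The gap was wider in expected counts, 5452.32 and 13713.10 against 1071.68 and 3005.90 for Rps27. The TPM of Rps27 rests on short effective lengths, 57.24 and 66.22 bases. Rps12-ps3, annotated as protein-coding, had 477.69 and 386.40 TPM, against 319.86 and 384.08 TPM for Rps12. Reads of identical sequence cannot be assigned with certainty, so both values depend on how the authors divided them. Rpl9-ps6 (49.59 and 62.21 TPM) and Rpl10-ps3 (47.75 and 60.05 TPM) are also near-identical copies annotated as protein-coding and stood at 9.01% and 12.1% of Rpl9 and 11.9% and 16.1% of Rpl10.

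Another 4 detected paralogs have more diverged coding sequences. Rpl36al, 87.7% identical to Rpl36a over the coding sequence, had 259.58 and 202.58 TPM, or 10.7% and 11.4% of Rpl36a. Rpl22l1, 72.7% identical to Rpl22, had 48.48 and 37.64 TPM, or 5.96% and 4.93% of Rpl22, the RNA-binding partner known to repress it in mice. Rps27l, 77.4% identical to Rps27 and a target of p53 in human cells, had 47.77 and 35.98 TPM. That was 19.4% and 15.4% of Rps27, but 6.83% and 5.55% of the Rps27 family. Rpl7l1, 63.6% identical to Rpl7, had 18.84 and 24.93 TPM, or 1.97% and 3.03% of Rpl7. In each of these pairs the paralog was below its parent in both libraries.

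Paralogs known from single tissues were not detected or nearly so. Rpl10l and Rpl39l, best known from the testis, had 0 counts in both libraries, as did Rpl36-ps4. Rpl3l, known from heart and skeletal muscle, had 0 counts in replicate 1 and 9 in replicate 2. Rpl9-ps1 had 18 and 19.01 counts and Rpl36a-ps1 40.35 and 166.12. Of core genes outside the symbol rule, Rack1, a scaffold for signalling proteins on the small subunit, had 348.53 and 345.86 TPM. Fau, made as a fusion with a ubiquitin-like protein, had 212.78 and 259.17 TPM.

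Between the libraries, core genes each differed by less than 2-fold, mostly in 1 direction. On counts of the gene entries without copies, scaled by TMM, 64 of 77 core genes were higher in replicate 1. Of 4873 nuclear protein-coding genes, 50.3% were. These 4873 are all those with a mean count at or above that of the lowest core gene, core genes included. Their counts were not matched to the core genes beyond this minimum. The median log2 CPM ratio of replicate 1 over replicate 2 was 0.18 over core genes and 0.00 over those 4873 genes. The median absolute ratio was larger over core genes, at 0.19 against 0.15. None of the 86 members with a mean count of at least 50 differed 2-fold or more, where 7.64% of the 11185 genes over the same minimum and 0.164% of the 4873 genes did. Of the 11185 genes, 2.75% were 2-fold or more higher and 4.88% 2-fold or more lower in replicate 1. Depth and the size range in the labels, 200 to 1000 in replicate 1 but 187 to 1606 in replicate 2 without a unit, also differed, and their part in the shift was not tested. Across core genes the ratio had a Spearman rho of -0.02 with model length.

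Rpl36a and Rpl24, a protein of an intersubunit bridge, each had a log2 CPM ratio of 0.61. They were among the 3 core genes past 1.5-fold, where 2.24% of the 4873 genes were. Rpl36a had 1771 CPM in replicate 1 and 1159 CPM in replicate 2. Rps27l, outside the core, also had a ratio of 0.61, and Rpl14 and Rps23 each had 0.55. The ratios furthest the other way were -0.47 for Rpl36a-ps1, -0.23 for Rpl27, -0.21 for Rplp2, -0.21 for Rps25 and -0.19 for Rpl7l1. All these ratios use the gene entry alone, so they depend on how reads shared with copies were divided. Rpl27 had 923.74 and 3218.27 counts alone, but 30774 and 63404 with its copies. Relative to the library totals, the Rpl27 family was higher in replicate 1, unlike the gene entry. With 1 library on each side, no ratio has a replicate check.

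**Figure D4:**
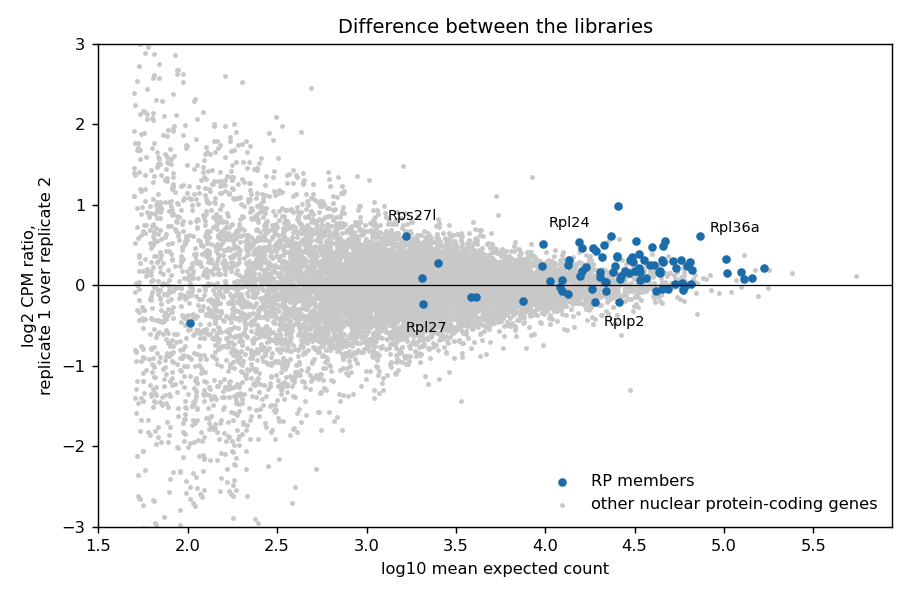
Log2 CPM ratio of replicate 1 over replicate 2 against log10 mean expected count, for the members (blue) and the other nuclear protein-coding genes (grey) with a mean count of at least 50. Most members lie a little above the zero line, with Rpl36a and Rpl24 at 0.61 and none past 1 either way. The axis stops at 3 each way, which leaves out 125 genes that are not members.

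Transcript models show which forms the reads were assigned to. The 91 members had 382 models, and 93.6% and 93.2% of member TPM stood on models annotated as protein-coding. Retained-intron models held 2.91% and 3.38%. Of the 85 members that had 100 or more counts in each library, 84 had the same leading model in both, and in 54 it held 90% or more of the gene's TPM in both.

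In 3 members the leading model was not annotated as protein-coding. For Rps20, the retained-intron model Rps20-201 of 582 bases held 95.9% and 94.5% of TPM. For Rpl12, a model annotated for nonsense-mediated decay, Rpl12-201, held 86.5% and 79.1%. For Rpl13a, a model of 464 bases that has no entry in the annotation release used here held 71.4% and 68.1% of TPM. Its share of expected counts was 45.7% and 42.6%, only slightly above that of the coding model Rpl13a-201 at 45.6% and 42.4%. Its lead was wider in TPM, which corrects for length, as Rpl13a-201 has 1034 bases. In all, 10 members had 10% or more of TPM outside coding models in both libraries. Besides those 3, Rpl35 had 43.0% and 47.3%, Rps27l 36.0% and 21.6%, Rps16 28.7% and 23.2%, and Rpl5 21.04% and 29.54%. Lower shares were found for Rpl41 (16.8% and 18.2%), Rpl10a (11.4% and 10.6%) and Rpl22l1 (10.97% and 20.27%).

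**Figure D5:**
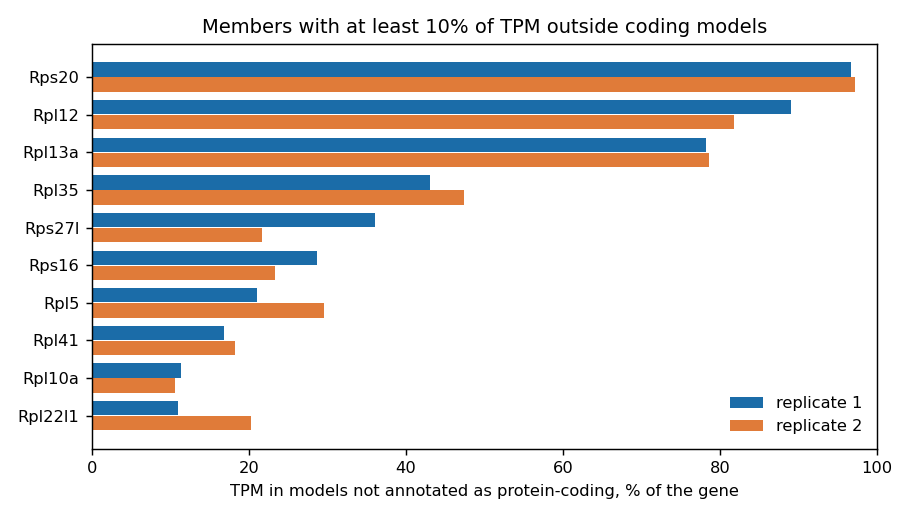
Percent of each gene's TPM on models not annotated as protein-coding, for the 10 members with at least 10% in both libraries; upper bars are replicate 1 and lower bars replicate 2. Rps20, Rpl12 and Rpl13a exceed 78% in both libraries, and the leading Rpl13a model counts here because the annotation release gives it no class.

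Rps24 was split between a pair of coding models. The 468-base model held 62.2% and 51.1% of its TPM and the 837-base model 37.8% and 48.9%. In expected counts the order turned, with 40.1% and 30.5% on the 468-base model and 59.9% and 69.5% on the 837-base model. The split of Rpl19 differed between the libraries, with Rpl19-202 at 47.2% and 6.86%. Its models Rpl19-201 and Rpl19-202 are of nearly the same length, 751 and 737 bases. Rpl30-205, a model not annotated as coding, held 4.45% and 25.5% of Rpl30. The level of Rpl19 as a whole was 383.98 and 381.52 TPM, so its split differed more than its level.

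Introns of many ribosomal protein genes carry small nucleolar RNAs (snoRNAs), which guide modification of ribosomal and other RNA. Within 30 members the annotation places 58 snoRNA genes. Of the 35 shorter than 100 bases, 33 had 0 counts in both libraries. Of the 23 of 100 bases or more, 18 had counts in both. In replicate 1 the highest expected count was that of Gm24044 in Rpsa, which had 809 and 449 counts. In replicate 2 it was that of Gm24888 in Rpl27a, which had 745 and 2445. Rpsa also holds Snora62, with 752 and 1316 counts, and Gm26448, with 471 and 1328. The lower ends of the size ranges were 200 and 187, and their part in the zeros was not tested. Medians of the host genes were 511.75 and 559.735 TPM, and those of the 47 core genes without a snoRNA were 513.62 and 439.48 TPM. The order of these medians differed between the libraries.

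Promoter sequences from RefSeq on GRCm38.p6 were found for 65 members, 57 of them core genes. A C at the annotated start followed by at least 4 bases of C or T was present in 13 of the 57 core genes, which is 22.8%, against 2.95% of the 7345 detected nuclear protein-coding genes with an entry. Within 5 bases of the start it was present in 47.4% of core genes and 24.1% of detected genes. Windows of 30 bases around the start are shown for 6 of the 13 genes, with the run from the start base in capitals.
Rpl15 (chr14:18270972-18271001, minus strand): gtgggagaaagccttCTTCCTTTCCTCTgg
Rpl35 (chr2:39005117-39005146, minus strand): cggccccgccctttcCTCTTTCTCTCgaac
Rps10 (chr17:27635230-27635259, minus strand): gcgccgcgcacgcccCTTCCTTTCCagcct
Rps6 (chr4:86857353-86857382, minus strand): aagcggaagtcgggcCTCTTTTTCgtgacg
Rpl38 (chr11:114668565-114668594, plus strand): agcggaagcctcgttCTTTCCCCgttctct
Rplp2 (chr7:141447636-141447665, plus strand): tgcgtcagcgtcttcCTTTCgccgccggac

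Counted from the annotated start, the runs were 13 bases long in Rpl15, 11 in Rpl35, 10 in Rps10, 9 in Rps6, 8 in Rpl38 and 5 in Rplp2. In each window shown the base before the start is also C or T, so the whole pyrimidine stretch is longer. An annotated start can lie some bases from the start used in these cells, so an absent run says only that these letters are not at that base. At the first base of the leading coding model the run was found in 10 of 77 core genes, or 13.0%, against 2.49% of 8800 detected genes. Among other short motifs, searched on both strands from 250 bases before to 50 after the start, CCGGAA was in 56.1% of core promoters and 36.2% of those of detected genes. GGGCGG was in 61.4% and 70.4%. AAGATGGC was in 8.77% and 6.32%, TATAAA in 10.5% and 7.75%, and the NRF1 motif in 3.51% and 2.70%. No motif holds another. A match is a description of the sequence and not a binding site.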

How the data were processed

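Per the labels, 2 libraries of common myeloid progenitors were prepared with ScriptSeq, each from 100 ng of rRNA-depleted RNA. For each library the authors deposited gene and transcript tables, built on mm10 and GENCODE M4 per its readme. The aligner and quantifier are not given in the sources used here. Per the file headers, the deposited units are expected counts, TPM, posterior mean TPM and FPKM, as was the posterior SD of the count, used here as a score of uncertainty. TPM and FPKM are relative to all 69691 entries of a deposited table. Members and lists were chosen with earlier results of these data known.

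Names came from GENCODE M21 by Ensembl ID (42462 of 43346 entries, with 0.277% of counts unmatched). Expected counts were rounded and scaled with TMM in edgeR 4.0.16 in R 4.3.3 (prior count 0.5), and with DESeq2 1.42.0 size factors as the alternative, over all genes; the steps were tested on simulated data. Entries that are not Ensembl genes stayed out of library sizes and held under 0.001% of counts. Levels are means ± SD over 2 libraries, with a pseudocount of 1 where log2 is stated. Copies were found with BLAST 2.17.0. Other steps used Python 3.11.15, pandas 2.3.3, numpy 2.4.6 and matplotlib 3.10.9. Named genes were the extremes of each subunit, the stalk, particle, Diamond-Blackfan and paralog lists, the largest library ratios, genes with non-coding models and snoRNA hosts; copies were named after their values were seen. Protein features were not analysed here, and Rps4l was not analysed here. TPM of genes with near-identical copies, and reads of overlapping genes, depend on how the authors divided shared reads. A few members and markers are not reported here.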

Additional observations from a re-analysis of the deposited data

How the results depend on the processing

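The labels give 1 group, so no result had a test. No paired analysis was possible because there is 1 group. Median levels change with the unit: as FPKM they were 1227 for the core, 1108 for the small and 1291 for the large subunit, and as TPM rescaled to nuclear protein-coding genes 2344, 2121 and 2468. Summing copies, chosen after seeing the data, gave 641, 642 and 638 TPM, and at the length of the gene 604, 635 and 594 TPM, against 486, 441 and 512 TPM for single genes. The small minus large difference was -0.22 for single genes. It was a mean of 0.012 with copies summed, of opposite sign in the libraries (0.05 and -0.03), and 0.096 at the length of the gene, positive in both. Summing brought the SD of log2 level from 0.95 to 0.81, or 0.78. Against nuclear protein-coding genes, members held a mean of 7.18% of counts and 21.8% of TPM, where all entries gave 5.82% and 4.53%. With a mean count of at least 10 in place of 50, 1 member was 2-fold or more apart, Rpl9-ps1. The share of core promoters with a pyrimidine run was 22.8% at the start, 47.4% within 5 bases, 13.0% at the first base of the leading model and 28.6% within 5 bases of it. A stricter match of copies (98% identity over 90% of the coding sequence) gave 16.5% of family counts on copies, against 17.8%, and left none for Rps12 and Rpl31. The most counted copies of both genes missed only the limit on coverage. Without either replicate in turn, the core median ran from 459 to 513 TPM and the SD from 0.92 to 1.00. The remaining 51 values under other settings moved by no more than the spread between libraries, or, for counts, by no more than 1.5 times. Of 32 values for paralogs under other settings, 30 moved by no more than that spread. The posterior mean of Rpl10l and Rpl39l is not 0. Both totals include values without a replicate. Where the main value is a mean of the libraries, these lie within that spread by construction, so they are no check. Depth limits the members outside the core with few counts.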
